A study of Homo sapiens with 11 samples.

Results

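The genes described here are 30 genes of the endoplasmic reticulum (ER) stress response and of the folding machinery of secreted proteins, followed through depletion of Tat-SF1. They were chosen by name, as the exon array probe sets that carry exactly 1 gene symbol from a list of 30. Of these, 28 had a gene value, out of 14528 genes with one. The remaining pair, SDF2L1 and PDIA3, had fewer than 4 usable probe sets each.

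The study asked which transcripts and exons change when Tat-SF1, the product of HTATSF1, is depleted from T-REx-293 cells, tetracycline-inducible cells that descend from HEK293, an established line of human embryonic kidney cells. Depleted cells expressed either of 2 shRNAs against Tat-SF1, here named shRNA A and shRNA B, with 3 arrays each. Control cells expressed an shRNA against green fluorescent protein (GFP; 3 arrays) or an empty vector (2 arrays; replicate 3 was dropped by the submitters after quality control). Every culture, controls included, carried a stable GFP plasmid and was induced with tetracycline at 2.5 µg/mL for 72 h. The design text calls the replicates biological, but the labels do not say whether a construct was carried by 1 clone or by a pool of cells. In what follows, "knockdown" stands for the 6 arrays of both shRNAs and "control" for the 5 arrays of both control constructs.

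The ER folds, glycosylates and disulfide-bonds proteins that enter the secretory pathway. When unfolded proteins accumulate, 3 membrane sensors start the unfolded protein response. IRE1 (ERN1) removes an intron from XBP1 mRNA so that an active transcription factor is made, ATF6 is cut in the Golgi to release another, and PERK (EIF2AK3) phosphorylates eIF2α, which slows translation in general while ATF4 is still made. The released factors raise transcription of chaperones and of genes for ER-associated degradation, in which misfolded proteins are moved back to the cytosol and destroyed. HSPA5, the ER chaperone BiP, is the response's best known target, and its promoter carries the ER stress response element (ERSE).

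The elements through which ATF6 and XBP1 act were looked for in RefSeq promoters of GRCh38.p14, in the 250 bases before each annotated start and on both strands, to show the letters themselves in the members that hold them. The motifs were ERSE (CCAAT, any 9 bases, then CCACG), ERSE-II (ATTGG, any 1 base, then CCACG) and the XBP1 element UPRE (TGACGTGG). Of the 30 members, all but DERL1 and PDIA3, or 28, were in the promoter table. ERSE stood in 7 of them (HSPA5, HSP90B1, CALR, CANX, PDIA6, CRELD2 and XBP1), against 0.0916% of 27305 symbols, and ERSE-II in 3 (HERPUD1, HYOU1 and SDF2L1), against 0.0659%. UPRE stood in HYOU1 alone, against 0.78% of all symbols, where it overlapped a second ERSE-II match. The matched stretches are printed on each gene's own strand, 5′ to 3′, with the motif in capitals, so that the element reads as written above or as its reverse complement. For a gene with several matches, the match nearest its start is printed. HSP90B1 held a second ERSE, from -194 to -176 bases relative to the start. HSPA5 is shown with more of its promoter, at chr9:125241364-125241483 on the minus strand.
HSPA5: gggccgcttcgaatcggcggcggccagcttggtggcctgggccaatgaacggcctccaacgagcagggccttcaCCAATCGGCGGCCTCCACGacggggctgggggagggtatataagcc
HSP90B1: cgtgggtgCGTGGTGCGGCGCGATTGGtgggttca
CALR: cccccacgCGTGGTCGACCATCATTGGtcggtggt
CANX: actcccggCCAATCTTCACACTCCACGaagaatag
PDIA6: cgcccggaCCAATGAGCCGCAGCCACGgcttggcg
CRELD2: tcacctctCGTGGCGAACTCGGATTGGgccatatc
XBP1: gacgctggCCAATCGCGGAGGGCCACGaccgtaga
HERPUD1: ggacgccgATTGGGCCACGttgggaga
HYOU1: gcctgggaCGTGGTCCAATgagtacgc
SDF2L1: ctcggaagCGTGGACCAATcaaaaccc

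The stretches lie at chr12:103930313-103930347 on the plus strand (HSP90B1), chr19:12938376-12938410 on the plus strand (CALR) and chr5:179698770-179698804 on the plus strand (CANX). Those of PDIA6 and XBP1 lie on the minus strand at chr2:10812845-10812879 and chr22:28800595-28800629. CRELD2 follows at chr22:49918546-49918580 and SDF2L1 at chr22:21642106-21642132, both on the plus strand. HERPUD1 lies at chr16:56932017-56932043 on the plus strand and HYOU1 at chr11:119057266-119057292 on the minus strand. A match describes the letters only, and binding was not measured in these samples.

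Values below are log2 array signals. A gene value is the median of the gene's usable probe sets on an array. Each of these had an estimate on all 11 arrays and a mean of at least 7.91, the median over all probe sets. That level is called the dim level here and is not a measured background. Differences are knockdown minus control on the log2 scale with the standard error (SE) of limma, and a gene passed with a Benjamini-Hochberg adjusted p under 0.05 over all genes tested. HTATSF1 averaged 8.21 ± 0.057 in knockdown arrays and 8.50 ± 0.12 in control arrays (SD, n = 6 and 5), a difference of -0.30 ± 0.051 (SE, limma adjusted p = 0.0484, exact two-sided permutation p = 0.0022, the smallest the design allows). That adjusted call held in 1 of the 11 fits that left out an array. Correlations between arrays ran from 0.941 to 0.962. Of 8 genes reported in HEK293-derived cells, 7 had a value, from 7.98, near the dim level, to 10.14 for VIM. LHX1 had none. A value was present for 1 of 4 markers of blood, 2 of 4 of liver, 3 of 4 of endothelium and 3 of 4 of plasma cells. Those lay between 7.92 and 8.00, near the dim level, and the 5 of fibroblasts between 7.92 and 8.13. The limit on dim probe sets fixes the lower end of these ranges. Of the 6 knockdown arrays, 4 (shRNA A replicate 3 and all of shRNA B) carry a suffix in their array names that no control carries, and its part in the results was not tested beyond the values given with it.

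No measured ER stress or secretory chaperone gene passed the test for a change on Tat-SF1 depletion. Of 28 members, 0 passed (limma, adjusted), against 0.22% of all genes, of which 5 were higher and 27 lower. At an unadjusted p under 0.05 the count was 1 of 28, DERL2, against 15.2% of all genes. The 6 knockdown arrays lay wholly to one side of the 5 control arrays for none of the 28, against 2.24% of all genes. The knockdown mean was below the control mean in 16 of 28 members, against 67.2% of all genes. The members' differences ran from -0.19 (CALR) to 0.16 (DERL2) with a median of -0.011, beside -0.016 for all genes, and 24 of the 28 lay within 0.1 of 0. The 95% confidence intervals bound the differences of log2 values and not of RNA amounts. All 28 lay within ±0.5 and 24 within ±0.25, and the widest reach was to -0.38 for CALR and to 0.32 for DERL2. On this scale HTATSF1 differed by -0.30, while its unlogged signal above the array median was 45% of control. DNAJB9, PPP1R15A, ERN1 and EIF2AK3 averaged only 0.10, 0.13, 0.15 and 0.21 above the dim level, so a fall to that level would lie within ±0.25. In the same order, their own intervals reached down to -0.076, -0.18, -0.081 and -0.049. In RNA from whole cultures, fewer expressing cells and less RNA per cell cannot be told apart.

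**Figure D1:**
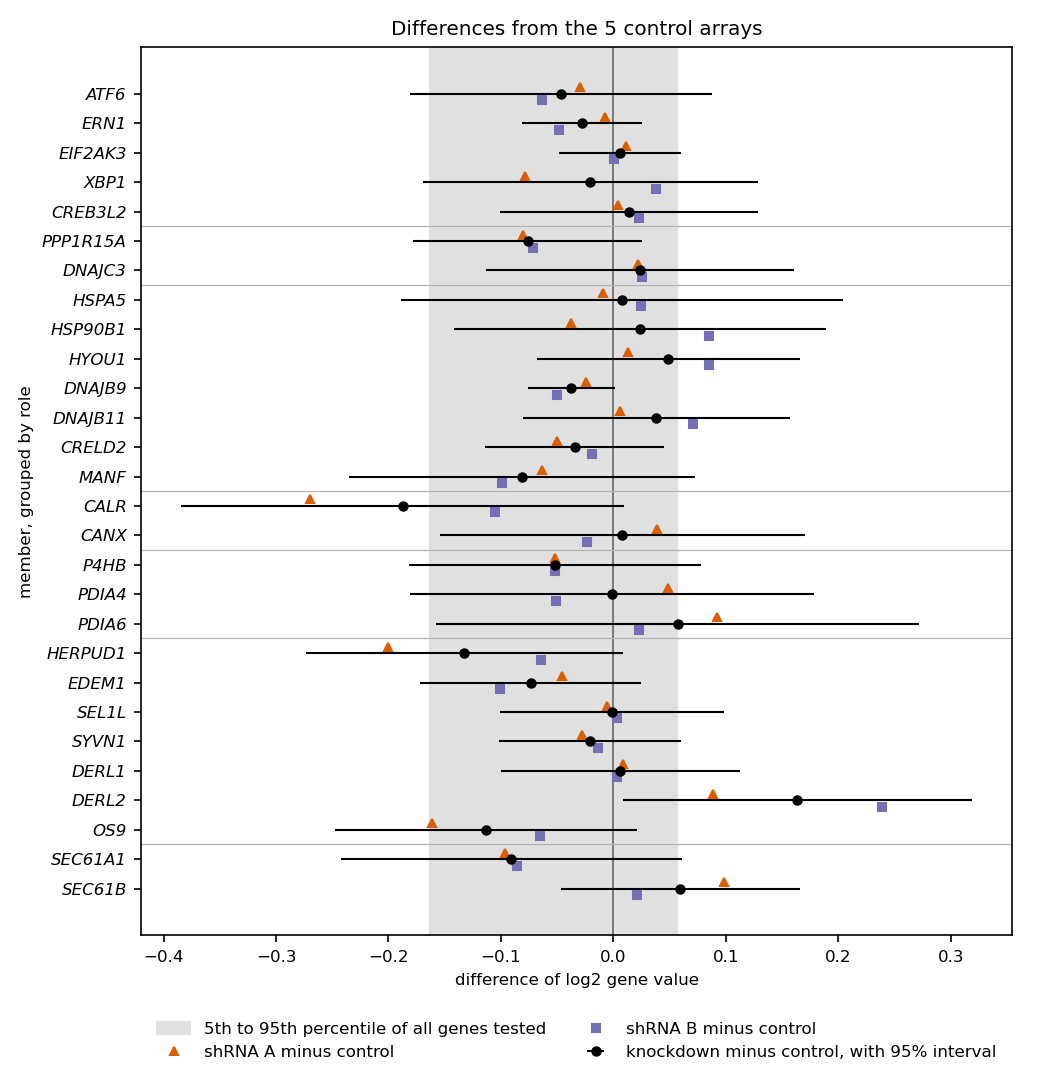
Knockdown minus control difference of each of the 28 measured members on the log2 scale (horizontal axis), grouped by role, with 95% confidence intervals from limma. The differences run from -0.19 for CALR to 0.16 for DERL2, and the interval of DERL2 is the only one that leaves out 0, with no adjustment for the number of genes.

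Among the sensors, ATF6 read 8.90, 8.91 and 9.08 with shRNA A and 8.79, 8.96 and 9.03 with shRNA B, against 8.94, 9.05 and 9.16 with the GFP shRNA and 8.93 and 8.87 with the empty vector. The groups overlapped, the lowest array being shRNA B replicate 1 and the highest GFP shRNA replicate 3, and the difference was -0.047 ± 0.064 (SE). ERN1, the IRE1 kinase and nuclease, read 8.08, 8.06 and 8.05 with shRNA A and 8.04, 8.04 and 7.99 with shRNA B, against 8.16, 8.03 and 8.08 with the GFP shRNA and 8.07 and 8.02 with the empty vector. Those values sit barely above the dim level, the groups overlapped, and the difference was -0.028 ± 0.025. EIF2AK3, which encodes PERK, read 8.13, 8.10 and 8.15 with shRNA A and 8.11, 8.12 and 8.11 with shRNA B, against 8.10, 8.09 and 8.15 with the GFP shRNA and 8.18 and 8.07 with the empty vector. All knockdown values of EIF2AK3 lay inside the control range, with a difference of 0.0059 ± 0.026.

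XBP1, the transcription factor made after IRE1 cuts its mRNA, read 9.09, 9.14 and 9.08 with shRNA A and 9.08, 9.20 and 9.39 with shRNA B, against 9.36, 9.14 and 9.20 with the GFP shRNA and 9.18 and 9.02 with the empty vector. The highest array was shRNA B replicate 3 and the lowest empty vector replicate 2, so the spread within each condition exceeded the difference of -0.020 ± 0.070. CREB3L2, a membrane-bound transcription factor related to ATF6, averaged 8.62 ± 0.070 in knockdown arrays and 8.61 ± 0.11 in control arrays (SD, n = 6 and 5). Across the 5 sensors and factors, 3 were lower and 2 higher, with a median of -0.020. Gene values of this kind cannot separate the spliced from the unspliced XBP1 mRNA, nor show cleavage of ATF6 or phosphorylation by PERK.

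The PERK arm is held in check by 2 members. PPP1R15A, or GADD34, brings a phosphatase to eIF2α and restores translation. It read 7.99, 7.93 and 8.08 with shRNA A and 7.94, 7.93 and 8.15 with shRNA B, against 8.23, 8.15 and 8.02 with the GFP shRNA and 8.07 and 7.93 with the empty vector. These are dim values that overlapped between groups, with a difference of -0.076 ± 0.048 and an adjusted p of 0.478, although all 7 of its probe sets had a lower knockdown mean. DNAJC3, an ER cochaperone first described as an inhibitor of eIF2α kinases, averaged 8.71 ± 0.097 in knockdown arrays and 8.69 ± 0.13 in control arrays.

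**Figure D2:**
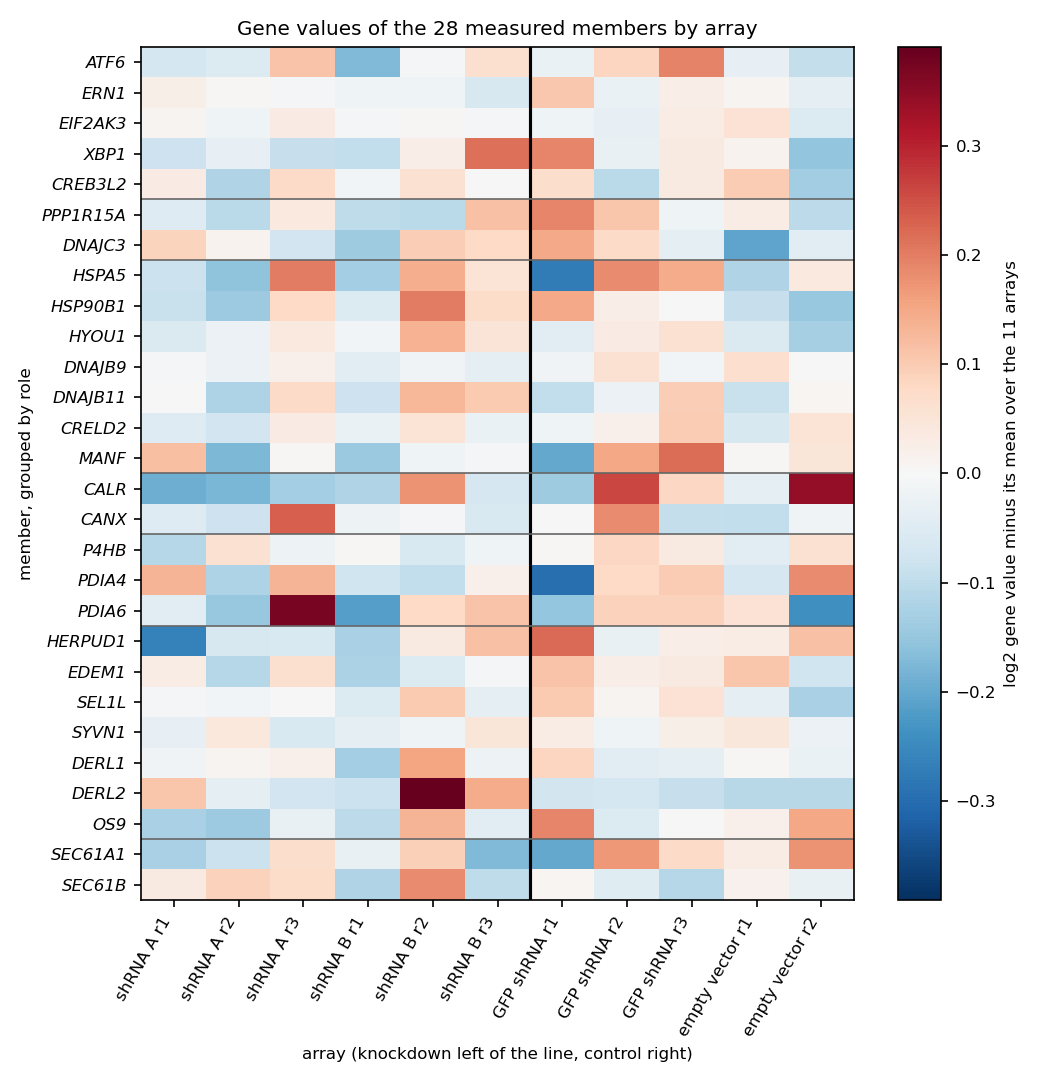
Gene value of each of the 28 measured members on each of the 11 arrays, shown as the log2 difference from the member's mean over all arrays, with the shRNA A and shRNA B arrays left of the GFP shRNA and empty vector arrays. Arrays of 1 condition differ among themselves. Of the 28 members, shRNA B replicate 2 holds the highest value of 6 (11.0% of all genes). The lowest value of 8 lies in empty vector replicate 2 (14.5% of all genes).

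HSPA5, the Hsp70 chaperone of the ER, had nearly the same mean in both conditions. It read 9.99, 9.92 and 10.28 with shRNA A and 9.94, 10.22 and 10.13 with shRNA B, against 9.80, 10.26 and 10.22 with the GFP shRNA and 9.96 and 10.11 with the empty vector. Both the lowest array (GFP shRNA replicate 1) and 2 of the 4 highest were controls, and the difference was 0.0079 ± 0.093 with a 95% interval from -0.19 to 0.20. HSP90B1, the ER form of Hsp90 also called GRP94, averaged 10.69 ± 0.13 in knockdown arrays and 10.66 ± 0.11 in control arrays. HYOU1, a large Hsp70-like chaperone that exchanges nucleotide on BiP, averaged 9.31 ± 0.068 in knockdown arrays and 9.26 ± 0.075 in control arrays. Its 35 probe sets leaned to one side, with 28 higher in the knockdown mean, but the gene value differed by 0.049 ± 0.055.

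The cofactors of BiP did not pass either. DNAJB9, or ERdj4, a J-domain protein that represses IRE1 through BiP, read 8.00, 7.99 and 8.03 with shRNA A and 7.97, 8.00 and 7.97 with shRNA B, against 8.00, 8.07 and 8.00 with the GFP shRNA and 8.08 and 8.01 with the empty vector. The values cover a range of only 0.11 close to the dim level, where the knockdown arrays sat mostly low, and the difference was -0.037 ± 0.018 (SE, limma adjusted p = 0.344). DNAJB11, or ERdj3, which hands unfolded proteins to BiP, averaged 8.69 ± 0.10 in knockdown arrays and 8.65 ± 0.078 in control arrays. CRELD2, an ER stress-induced protein with disulfide isomerase activity, averaged 8.21 ± 0.048 in knockdown arrays and 8.24 ± 0.062 in control arrays. MANF, a secreted ER stress protein that binds BiP and is listed on this array under its older symbol ARMET, averaged 8.85 ± 0.11 in knockdown arrays and 8.93 ± 0.16 in control arrays. Of the 7 lumenal chaperones and cofactors with a value, 3 were lower and 4 higher, with a median of 0.0079.

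CALR and CANX encode calreticulin and calnexin, which hold glycoproteins that carry a single glucose until they fold. CALR read 10.19, 10.20 and 10.25 with shRNA A and 10.26, 10.56 and 10.31 with shRNA B, against 10.24, 10.64 and 10.46 with the GFP shRNA and 10.35 and 10.72 with the empty vector. Only 2 of the 5 control arrays exceeded every knockdown array, the GFP shRNA replicate 1 value lay among the lowest, and the difference of -0.19 ± 0.093 (SE) did not pass (limma adjusted p = 0.357). The CALR value also turned on how its probe sets were combined, since only 6 of its 17 probe sets had a lower knockdown mean, and their mean in place of their median gave a difference of 0.0063. CANX averaged 10.94 ± 0.12 in knockdown arrays and 10.94 ± 0.11 in control arrays, with shRNA A replicate 3 the highest of all.

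The disulfide isomerases form and rearrange disulfide bonds. P4HB, the founding member and also a subunit of prolyl 4-hydroxylase, averaged 10.97 ± 0.059 in knockdown arrays and 11.02 ± 0.048 in control arrays, the brightest pair of values among the members. Its probe sets leaned lower, 34 of 40, while the gene value differed by -0.052 ± 0.061. That P4HB difference was -0.13 with a higher limit on dim probe sets, -0.12 with their mean, and 0.030 after cyclic loess. PDIA4, or ERp72, averaged 9.76 ± 0.11 in knockdown arrays and 9.76 ± 0.19 in control arrays. PDIA6, which acts with BiP and can attenuate IRE1 signalling, averaged 10.56 ± 0.21 in knockdown arrays and 10.50 ± 0.15 in control arrays, and it had the widest range over the 11 arrays of any member, 0.61. PDIA3, or ERp57, the isomerase that works with calnexin and calreticulin, had no gene value because 14 of its probe sets carry several symbols and 3 of the other 5 reached the dim level. The brightest single-symbol probe set of PDIA3 averaged 10.56 ± 0.11 in knockdown arrays and 10.76 ± 0.10 in control arrays. With no filter on dim probe sets, PDIA3 differed by -0.027 (limma adjusted p = 0.776) and SDF2L1, a BiP cochaperone with 4 probe sets of which 2 reached the dim level, by -0.071 (adjusted p = 0.291). The unfiltered means in knockdown and control arrays were 7.93 and 7.96 for PDIA3 and 7.81 and 7.88 for SDF2L1. These lie near or below the dim level and do not show whether either gene changed.

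ER-associated degradation held the member with the smallest p. DERL2, a rhomboid-like protein of the retrotranslocation channel, read 8.93, 8.78 and 8.74 with shRNA A and 8.74, 9.21 and 8.96 with shRNA B, against 8.75, 8.75 and 8.73 with the GFP shRNA and 8.71 and 8.71 with the empty vector. The 5 controls were nearly alike while the knockdown arrays spread upward, 4 of the 6 above every control and 2 inside the control range. The difference was 0.16 ± 0.073 (SE, limma adjusted p = 0.304), and without shRNA B replicate 2, the highest array, it was 0.10. DERL1, its paralogue, averaged 8.58 ± 0.092 in knockdown arrays and 8.58 ± 0.052 in control arrays.

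HERPUD1, a ubiquitin-like protein that assembles the HRD1 ligase complex and carries an ERSE-II, read 8.60, 8.80 and 8.80 with shRNA A and 8.73, 8.90 and 8.97 with shRNA B, against 9.08, 8.83 and 8.89 with the GFP shRNA and 8.89 and 8.98 with the empty vector. The 4 lowest arrays were all knockdown arrays and the highest was a control, but the difference of -0.13 ± 0.066 (SE) did not pass (limma adjusted p = 0.363). OS9, a lectin that brings misfolded glycoproteins to the ligase, read 8.98, 8.96 and 9.08 with shRNA A and 9.00, 9.24 and 9.07 with shRNA B, against 9.30, 9.05 and 9.11 with the GFP shRNA and 9.12 and 9.26 with the empty vector. Here shRNA B replicate 2 lay among the higher controls, and the difference was -0.11 ± 0.063 (SE, limma adjusted p = 0.418). Of the 25 probe sets of OS9, 22 had a lower knockdown mean.

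EDEM1, which helps trim mannose from glycoproteins that are to be degraded, read 8.32, 8.18 and 8.35 with shRNA A and 8.17, 8.24 and 8.28 with shRNA B, against 8.40, 8.31 and 8.32 with the GFP shRNA and 8.40 and 8.21 with the empty vector. The groups overlapped, with 4 of the 6 knockdown arrays inside the control range, and the difference was -0.074 ± 0.047 (SE, limma adjusted p = 0.480), although 21 of 22 probe sets leaned lower. SEL1L, the scaffold of the HRD1 complex, averaged 8.43 ± 0.055 in knockdown arrays and 8.43 ± 0.088 in control arrays. SYVN1, the HRD1 ubiquitin ligase itself, averaged 8.42 ± 0.044 in knockdown arrays and 8.44 ± 0.030 in control arrays. Of the 7 degradation genes, 5 were lower and 2 higher, with a median of -0.021.

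SEC61A1 and SEC61B encode the α and β subunits of the translocon, the channel through which nascent chains enter the ER. SEC61A1 read 8.87, 8.92 and 9.07 with shRNA A and 8.97, 9.09 and 8.83 with shRNA B, against 8.80, 9.17 and 9.07 with the GFP shRNA and 9.03 and 9.17 with the empty vector. The lowest and the highest array were both controls, the difference was -0.091 ± 0.072 (SE, limma adjusted p = 0.588), and its sign depended on which probe sets were used, being 0.061 with a higher limit on dim probe sets and 0.018 with their mean. SEC61B averaged 8.23 ± 0.12 in knockdown arrays and 8.17 ± 0.051 in control arrays.

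**Figure D3:**
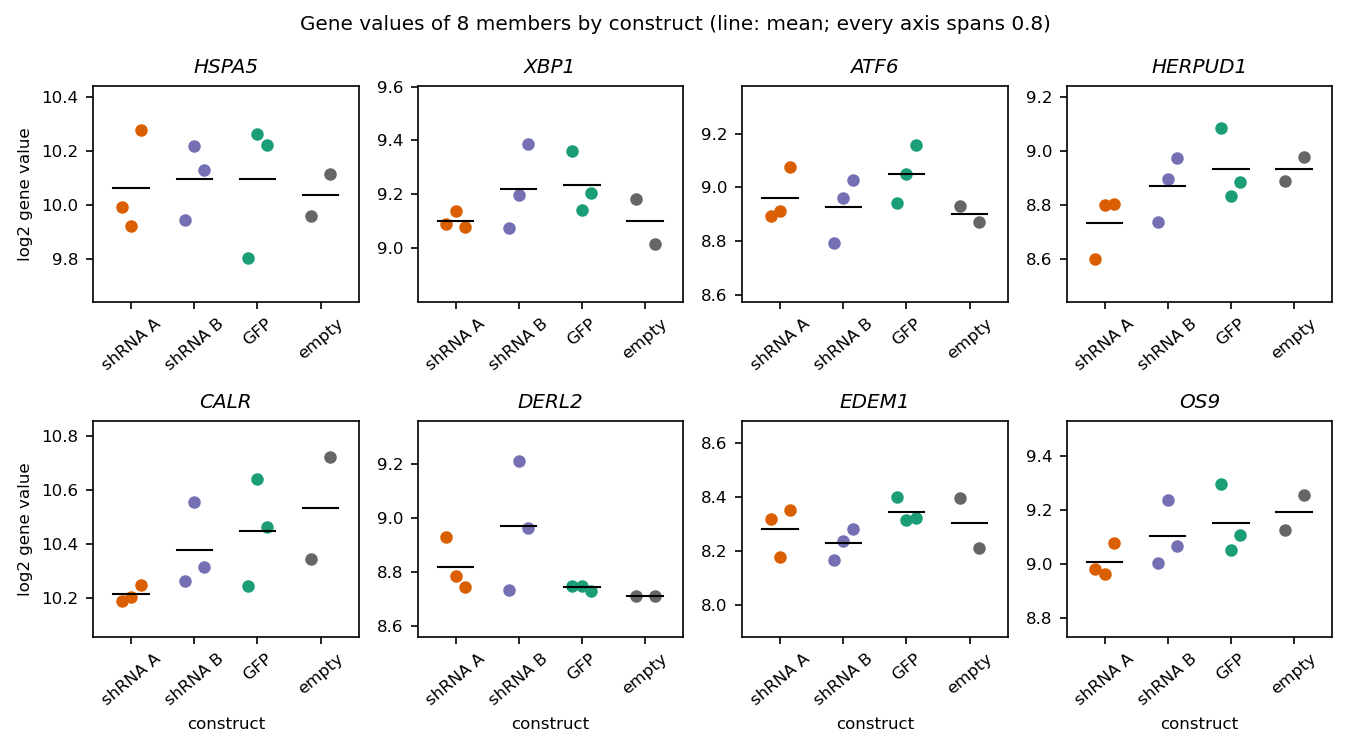
Gene values (log2, vertical axis) of HSPA5, XBP1, ATF6, HERPUD1, CALR, DERL2, EDEM1 and OS9 on every array, with shRNA A and shRNA B left of the GFP shRNA and the empty vector. Each point is 1 array. The 5 control values of DERL2 lie between 8.71 and 8.75 while its knockdown values reach 9.21, and the groups overlap for all 8 genes.

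Of the 9 members with an ERSE or ERSE-II and a gene value, 4 were lower and 5 higher in knockdown arrays, where 67.2% of all genes were lower. Their median was 0.0079 and their range ran from -0.19 (CALR) to 0.057 (PDIA6). Of the other 19, 12 were lower, with a median of -0.021. The 19 include DERL1, whose promoter was not searched. With shRNA A the median was -0.038 for those with an element and -0.0075 for the others. With shRNA B it was 0.022 for those with an element and -0.048 for the others, so the order changed between the shRNAs. Of the 9, 7 were higher with shRNA B than with shRNA A, where 51.2% of all genes were lower. With the GFP shRNA 8 of the 9 were higher than with the empty vector, as were 21 of all 28 members, while 35.6% of all genes were lower. The median there was 0.086 for the 9, 0.031 for the other members and 0.016 for all genes. These sets were described and not tested against each other.

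Each shRNA was also set against the same 5 controls, so these comparisons share them. With shRNA A, 0 of 28 members passed (limma; 0.00688% of all genes), and 3 had an unadjusted p under 0.05 (10.8% of all genes). Those were CALR (-0.27 ± 0.11), HERPUD1 (-0.20 ± 0.077) and OS9 (-0.16 ± 0.076), with adjusted p-values of 0.397, 0.364 and 0.464. HERPUD1 was lower and SEC61B higher on all 3 shRNA A arrays than on any control, 2 of 28 members against 7.43% of all genes. With shRNA B, 0 of 28 passed (limma; 0.0688% of all genes), and 2 had an unadjusted p under 0.05 (13.3% of all genes). These were DERL2 (0.24 ± 0.085, adjusted p = 0.251) and DNAJB9 (-0.050 ± 0.022, adjusted p = 0.343), and DNAJB9 was lower on all 3 shRNA B arrays than on any control, 1 of 28 against 7.81% of all genes. For DERL2 the shRNA B difference was 0.12 without replicate 2. For HERPUD1 the difference was -0.20 with shRNA A and -0.065 with shRNA B, and for CALR it was -0.27 and -0.10.

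The shRNAs were then compared directly. Between shRNA B and shRNA A, 0 of 28 members passed (limma; 0% of all genes), and 0 had an unadjusted p under 0.05, against 4.39% of all genes. The differences of shRNA B minus shRNA A that were largest in size were those of CALR, 0.17 ± 0.12, and DERL2, 0.15 ± 0.095, both with an adjusted p of 0.999 by limma. On all 3 arrays of shRNA B, CALR was higher and ERN1 lower than on any array of shRNA A, 2 of 28 against 10.5% of all genes. The 95% interval of the CALR difference ran from -0.094 to 0.42 and that of DERL2 from -0.051 to 0.35, which does not show that the shRNAs act alike on them.

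The control constructs gave a measure of background. Between the GFP shRNA and the empty vector, 0 of 28 members passed (limma; 0.00688% of all genes), and 0 had an unadjusted p under 0.05 (4.47% of all genes). Yet 6 members (ATF6, DERL2, DNAJC3, HSP90B1, HYOU1 and SEL1L) were higher on all 3 GFP shRNA arrays than on both empty vector arrays, against 13.5% of all genes higher in this way and 18.7% separated in either direction. The largest of these differences were DNAJC3 at 0.19 ± 0.091 and HSP90B1 at 0.18 ± 0.11. The 28 members differed between the controls by a median of 0.032, beside 0.016 for all genes, and that median was -0.0052 after quantile normalization and -0.011 after cyclic loess.

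Members varied more between arrays of a condition than all genes did. The genes were not matched to the members for brightness, so the comparison does not separate membership from signal level. The median SD of a member was 0.10 in knockdown arrays and 0.10 in control arrays, against 0.055 and 0.060 over all genes. The arrays themselves differed: the brightest genes averaged 9.257 ± 0.0447 in knockdown arrays and 9.324 ± 0.0411 in control arrays (SD, n = 6 and 5). GFP shRNA replicate 1 had the highest value of 7 members, or 25% of them, against 28.1% of all genes. It had the lowest value of 4, HSPA5, PDIA4, MANF and SEC61A1, against 4.58% of all genes. Within the arrays whose names lack the suffix, 2 of shRNA A against the 5 controls, CALR differed by -0.29, HERPUD1 by -0.24, OS9 by -0.20, HSPA5 by -0.12 and DERL2 by 0.13, with 0 of 28 members past the adjusted test. The members' median there was -0.058, beside -0.021 for all genes, and 23 of 28 members were lower (82.1%, against 68.4% of all genes). Among the 9 members whose sign differed from the full comparison were HSPA5, HSP90B1, HYOU1 and PDIA6. The part of brightness and of the suffix in these values was not tested.

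Exon usage was read from the splicing index, which subtracts the gene value from each probe set value, array by array. Of the 502 probe sets of the members, 0 passed (limma), against 0.00316% of 221484 probe sets. At an unadjusted p under 0.05 there were 88, or 17.5%, against 11.8% of all probe sets, and the index did not overlap between knockdown and control for 18 of the 502, against 1.45%. Probe sets of a gene share the gene value that is subtracted, so they do not count separate exon changes. CALR held 3 of the 18 and P4HB 7. A probe set of CALR (3822070) came closest, with an index difference of 0.38 ± 0.053 (SE, limma adjusted p = 0.0676). Its own log2 value read 9.55, 9.76 and 9.68 with shRNA A and 9.72, 10.13 and 9.69 with shRNA B, against 9.32, 9.83 and 9.60 with the GFP shRNA and 9.41 and 9.65 with the empty vector. Those values overlap between the groups, and the index difference joins a probe set difference of 0.19 to the CALR gene difference of -0.19. Probe set 3822053 of CALR also combined both in this way, at 11.82 ± 0.13 in knockdown arrays and 11.61 ± 0.19 in control arrays, with an index difference of 0.40 ± 0.079.

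Further probe sets near the threshold belonged to SEC61A1, XBP1 and P4HB. Probe set 2641046 of SEC61A1 read 10.64, 10.90 and 11.16 with shRNA A and 10.74, 10.99 and 10.75 with shRNA B, against 10.36, 10.51 and 10.54 with the GFP shRNA and 10.39 and 10.76 with the empty vector. Of the 6 knockdown values, 3 lay above all controls and 3 lay below empty vector replicate 2, and the index difference was 0.44 ± 0.073 (SE, limma adjusted p = 0.0780). Probe set 3956600 of XBP1 read 9.79, 9.80 and 9.69 with shRNA A and 9.88, 9.90 and 10.05 with shRNA B, against 10.23, 10.11 and 10.25 with the GFP shRNA and 10.12 and 10.17 with the empty vector. All 6 knockdown values of this XBP1 probe set were below all 5 controls, and its index difference was -0.31 ± 0.054 (SE, limma adjusted p = 0.0917).

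P4HB held 7 of the 18 member probe sets whose index did not overlap between the groups, 6 lower and 1 higher in knockdown arrays, out of its 40. Over all probe sets the share was 1.45%. Probe set 4041358, the one with the smallest p, read 11.15, 11.14 and 11.19 with shRNA A and 11.10, 11.05 and 11.15 with shRNA B, against 11.33, 11.44 and 11.39 with the GFP shRNA and 11.30 and 11.50 with the empty vector. Every knockdown value lay below every control, and the index difference was -0.21 ± 0.040 (SE, limma adjusted p = 0.101). For this probe set and that of XBP1, the share of all probe sets so separated in log2 value is not given. The exon that each of these probe sets reads is not given in the sources used here.

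**Figure D4:**
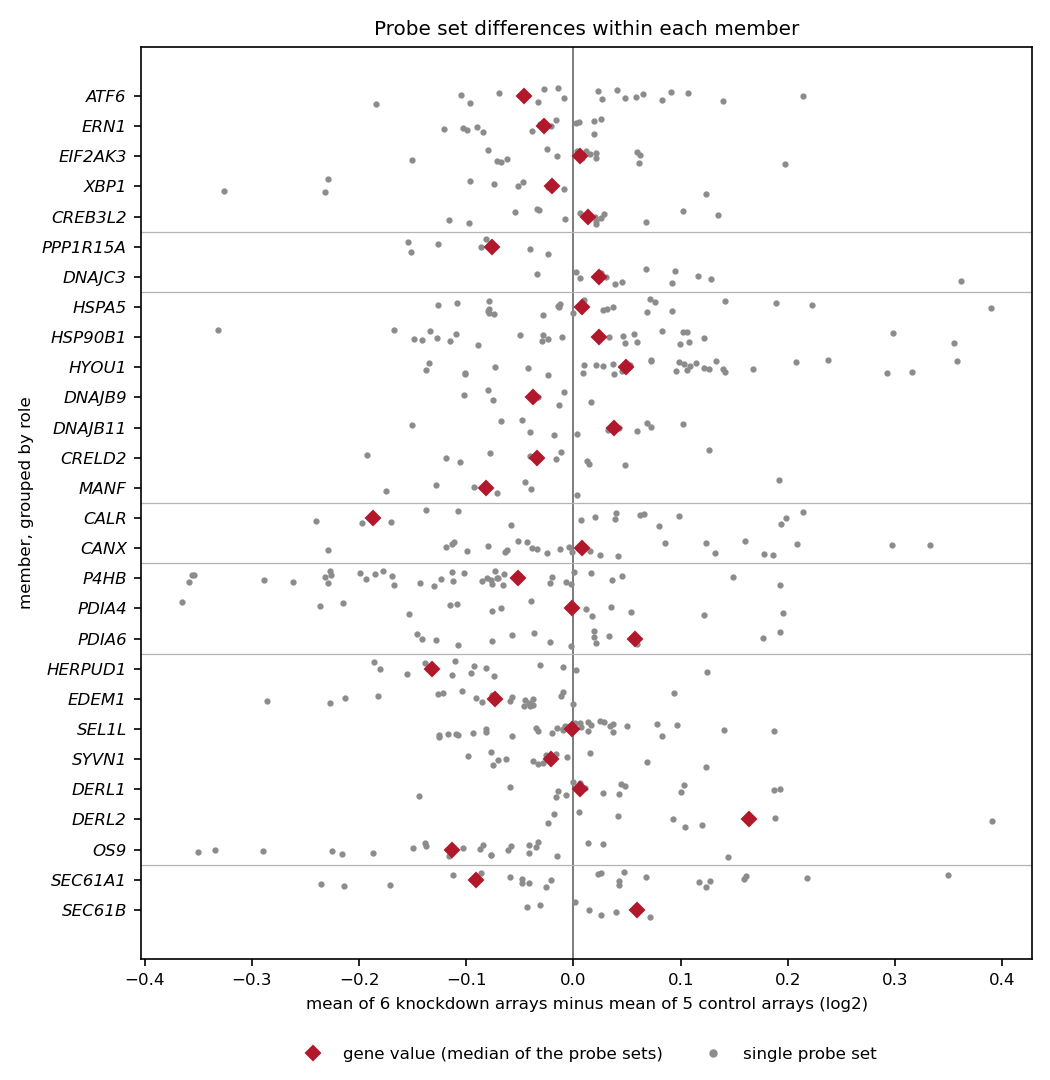
Knockdown minus control difference in log2 value of each of the 502 usable probe sets of the members (horizontal axis), 1 row per gene. Probe sets of CALR fall on both sides of 0 although its gene value is lower by 0.19, while those of EDEM1 (21 of 22) and PPP1R15A (7 of 7) lie almost wholly below 0.

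Direction over single probe sets was counted as well. Of the members' 502 probe sets, 56.2% had a lower knockdown mean, against 61.6% of all probe sets. At least 80% of the probe sets were lower for 7 members (25% of 28, against 20.8% of all genes), namely PPP1R15A, EDEM1, XBP1, OS9, HERPUD1, DNAJB9 and P4HB. At least 80% were higher for 2 (DNAJC3 and HYOU1; 7.14% against 4.87%). Probe sets of a gene share its RNA and the same arrays and are not replicates.

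Other genes of the ER were read from 7 further lists, of which 95 of 99 genes had a value. In knockdown arrays 63 were lower and 32 higher (67.2% of all genes were lower), 0 passed (limma), 12 had an unadjusted p under 0.05 (11 lower, 1 higher; 15.2% of all genes), and their median was -0.031 beside -0.016 for all genes. Among folding and redox factors 12 of 14 were lower, with FKBP2, a prolyl isomerase, at -0.17 ± 0.050 and CRELD1, related to CRELD2, at -0.058 ± 0.023. In glycan processing 5 of 9 were lower, and PRKCSH, the β subunit of glucosidase II, averaged 9.56 ± 0.077 in knockdown arrays and 9.87 ± 0.18 in control arrays. Each knockdown array of PRKCSH lay below each control, as for 2.02% of all genes, with a difference of -0.31 ± 0.077 (SE, limma adjusted p = 0.0850). MAN1B1, an ER mannosidase, differed by -0.084 ± 0.043. Of the oligosaccharyltransferase, 5 of 7 subunits were lower, with DDOST at -0.11 ± 0.070 and OSTC at -0.094 ± 0.064.

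In translocation and signal peptide removal 12 of 22 were lower, with the signal peptidase subunit SPCS1 at -0.19 ± 0.061 and SRP68, of the signal recognition particle, at -0.15 ± 0.062. Of the other degradation genes 7 of 10 were lower, with AUP1, an adaptor of that pathway, at -0.11 ± 0.068 and the ubiquitin-conjugating enzyme UBE2J1 at 0.069 ± 0.063. Of the COPII and COPI traffic genes 12 of 21 were lower, with the coatomer subunits COPG1 at -0.21 ± 0.071 and COPB2 at -0.15 ± 0.071. None of these 95 genes passed in the pooled comparison.

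The remaining signalling genes held the only gene of these lists that passed in any of the comparisons as fitted here. ATF4, the transcription factor made when PERK or other kinases phosphorylate eIF2α, read 10.09, 9.95 and 10.17 with shRNA A and 9.75, 9.87 and 9.61 with shRNA B, against 10.41, 10.16 and 10.23 with the GFP shRNA and 10.27 and 10.48 with the empty vector. All shRNA B arrays were below all controls, as for 6.31% of all genes, whereas shRNA A replicate 3 was level with the lowest control. ATF4 fell by 0.57 with shRNA B (limma adjusted p = 0.0360) and differed by -0.24 with shRNA A (adjusted p = 0.369) and by -0.40 ± 0.097 in the pooled comparison (adjusted p = 0.0803). Its call with shRNA B was lost in 16 of 19 alternatives, with adjusted p-values from 0.0293 to 0.452. It held only with quantile normalization and without shRNA A replicate 2 or GFP shRNA replicate 2. None of the 19 alternatives took the name suffix as a block. All 3 shRNA B arrays carry that suffix and no control does, so between them construct and suffix cannot be told apart. TRIB3, a pseudokinase induced by ATF4, differed by -0.16 ± 0.044 in the pooled comparison (adjusted p = 0.108), and 10 of the 12 signalling genes were lower.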

How the data were processed

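Total RNA of 11 cultures was hybridised to Affymetrix Human Exon 1.0 ST arrays, per the labels. The authors' deposited table holds log2 values per probe set. How they were background-corrected, normalized and mapped, and with which software, is not given in the sources used here. Array medians lay between 7.902 and 7.905, and each array lacked an estimate for 13190 to 15431 of 1399022 probe sets. Arrays have no read depth, and their number limits the precision.

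Probe sets were named through the platform's gene symbols: 355799 had 1 symbol, and 15195 had several and were left out. Of 19536 symbols, 16450 were current, 2965 were updated through RefSeq synonyms and 121 kept. Usable probe sets had 1 symbol, an estimate on all arrays and a mean of at least 7.91 (the median of the table). A gene needed at least 4, and its value was their median, leaving 221484 probe sets and 14528 genes.

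Differences were tested with limma 3.58.1 (lmFit, eBayes with a trend) in R 4.3.3 and version 1.17.8 of data.table, with Benjamini-Hochberg adjustment of p-values over every gene or probe set tested. The pooled fit had 2 levels, the fits for each shRNA 3 and that for the control constructs 4. HTATSF1 was also tested over all 462 splits of the arrays. The fits were tested on simulated data with independent noise for each gene or probe set on each array. Shifts shared across an array were not simulated.

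Values on every array are given for the 8 members with the smallest p, the 2 with the largest difference between shRNAs, and HSPA5, XBP1, ATF6, ERN1 and EIF2AK3. Up to 2 genes of each other list and 5 probe sets, by p, are named. The members, lists and rules were chosen with earlier results of these data known. Alternatives covered scaling, the filter, the summary of probe sets, the variance model, the replicate number, the name suffix, the pair of arrays that an earlier account found at either end of a principal component, and each array in turn.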

Additional observations from a re-analysis of the deposited data

Results flagged for a closer look

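In 3 of the 56 sets of values examined (28 members in knockdown and in control arrays), a single array stood far from the others of its condition by Dixon's criterion, which flags about 1 set in 20 by chance. CALR, the lectin chaperone, read 10.56 in shRNA B replicate 2, and the next knockdown array read 10.31. CANX, its membrane-bound relative, read 11.17 in shRNA A replicate 3, and the next read 10.94. SEL1L, the scaffold of the HRD1 ligase, read 8.53 in shRNA B replicate 2, and the next read 8.43. None of these genes passed in any comparison with or without that array.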

How the results depend on the processing

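No member passed under any of the 101 combinations of 5 gene comparisons and their alternatives (limma), with 24 to 30 members tested, nor any member probe set under the 16 alternatives of the splicing index. Between knockdown and control, 0 to 4 members had an unadjusted p under 0.05 and the smallest adjusted p lay between 0.176 and 0.544. The members' median ran from -0.058 to 0.036 and turned positive with quantile normalization (0.0037) and cyclic loess (0.036), where 3 and 6 members changed sign. With the suffix as a block, the differences were those of the 7 arrays without it, which hold no array of shRNA B. In both, 9 members changed sign and 23 of 28 were lower (68.4% of all genes in the 7 arrays).

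Counts over all genes moved more. Between knockdown and control, 32 genes passed, against 7 with cyclic loess, 19 with no filter, 251 with a higher limit on dim probe sets, 138 with the mean of probe sets, 87 without the variance trend, and 0 with the suffix as a block, in the 7 arrays without it, or without both end arrays (1178 to 1703 unadjusted). Leaving out 1 array gave 2 (GFP shRNA replicate 3) to 66 (empty vector replicate 2). For shRNA A the count of 1 became 0 with either scaling, the suffix block or the 7 arrays (at least 1178 unadjusted), 9 with no filter, 30 with the higher limit, 14 with the mean and 10 without the trend, and 0 to 2 without 1 array. For shRNA B the count of 10 became 4, 1, 79 and 24 with cyclic loess, no filter, the higher limit and the mean, 0 without both end arrays, and 0 to 9 without 1 array (at least 1308 unadjusted). Between the shRNAs it was 0 to 1 without 1 array. Between the control constructs the count of 1 became 0 with no filter, the higher limit, no trend, the 7 arrays or without both end arrays, and 0 to 2 without 1 array. For the splicing index 7 became 11 with no filter, 12 with the higher limit and 0 with the suffix block, and 0 to 95 without 1 array. HTATSF1 lost its call with cyclic loess (-0.26), no filter (-0.25), the suffix block or the 7 arrays (-0.25) and without both end arrays (-0.27), and ran from -0.34 to -0.26 without 1 array (adjusted p 0.0165 to 0.103). PRKCSH passed with the higher limit (adjusted p = 0.0372) and FKBP2 without empty vector replicate 2 (0.0497). The causes were not tested.

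Arrays with the same replicate number correlated between -0.147 and 0.268 in their deviations and share only a number. With it as a replicate block, 10 genes passed between knockdown and control, 1 with shRNA A, 4 with shRNA B, 0 between the shRNAs and 0 between the controls, 0 probe sets passed the splicing index, 0 members passed, and HTATSF1 stayed at -0.30 with an adjusted p of 0.0605.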
